A study of Mus musculus with 8 samples.

Results

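The 10 genes described here encode glutathione S-transferases of mouse liver: Gsta1, Gsta2, Gm3776, Gsta3 and Gsta4 of the alpha class, Gstm1 and Gstm3 of the mu class, Gstp1 of the pi class, and Gstt1 and Gstt3 of the theta class. They were taken by symbol from 2 tables, of 13774 and 11773 genes, and all 10 stood in both. They were chosen with their values in these same comparisons in view, so their levels and fold changes are given as a description. Where calls from fits over all genes are listed for them, the share of all genes called stands beside, and nothing is read from it.

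Liver RNA was sequenced from C57BL/6 mice fed a diet with 42% fat for 8 weeks, in 4 groups of 2 libraries. One table sets mice homozygous for a Ube3a transgene (TG) beside WT mice, and the other sets heterozygous mice, in which 1 Ube3a allele is knocked out and 1 is WT (het), beside a separate WT pair, so that each mutant was compared with the WT pair of its own table. UBE3A is a ubiquitin ligase, and the study asked how its gain or partial loss alters the liver transcriptome under this diet. The labels used here do not give the promoter of the transgene, the age or sex of the mice, or whether a pair of libraries stems from different animals, so p-values measure only the spread between libraries, which may be technical.

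Glutathione S-transferases join glutathione, a small thiol peptide, to reactive electrophiles, which makes these easier to export and clear. Hepatocytes carry them at very high levels, and the family includes enzymes for oxidised lipids as well as for drugs and pollutants. Several alpha and mu class genes are textbook targets of NRF2, a transcription factor that answers oxidative stress, and of the nuclear receptors CAR and PXR and the AHR receptor, which sense foreign compounds.

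The deposited values, called normalised read counts below, are gene counts scaled by the authors with 1 size factor for each library. Reads in the listed genes, recovered from these values, numbered 44193275 to 47928229 per library for TG and its WT pair. For het and its WT pair they numbered 13171145 to 17748088. Ube3a, as a check of the labels, read 1187 and 1359 normalised counts in WT and 5991 and 5938 in TG, which is 4.69 times as much. In the het table Ube3a read 369 and 409 in WT and 301 and 280 in het, a ratio of 0.746. Of 12 general hepatocyte markers listed in each table, none stood at 0 in every library. This was fixed in advance, as the lowest mean of a listed gene was 11.2 in the TG table and 17.8 in the het table.

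Of the alpha class genes, 4 lie in a single stretch of chromosome 9 (GRCm38, GENCODE M21), in the order Gsta4 (78182774 to 78209349, plus strand), Gsta1 (78230656 to 78242684, plus strand), Gm3776 (78257129 to 78269166, plus strand) and Gsta2 (78331018 to 78355788, minus strand). Gsta3 lies apart on chromosome 1 (21240589 to 21265661, plus strand). Gsta1, Gm3776 and Gsta2 have the lowest TG values of the 10 relative to WT, and their start regions are shown because they carry common blocks. The windows run from 250 bases before to 50 bases after the start site (RefSeq, GRCm38.p6), Gsta1 at chr9:78230419-78230718 on the plus strand, Gm3776 at chr9:78256879-78257178 on the plus strand and Gsta2 at chr9:78347096-78347395 on the minus strand. The Gsta2 window lies inside the GENCODE span given above, not at the end of it (78355788) where a minus-strand gene starts. Capitals mark bases inside words of 12 bases that all 3 windows hold.
Gsta1: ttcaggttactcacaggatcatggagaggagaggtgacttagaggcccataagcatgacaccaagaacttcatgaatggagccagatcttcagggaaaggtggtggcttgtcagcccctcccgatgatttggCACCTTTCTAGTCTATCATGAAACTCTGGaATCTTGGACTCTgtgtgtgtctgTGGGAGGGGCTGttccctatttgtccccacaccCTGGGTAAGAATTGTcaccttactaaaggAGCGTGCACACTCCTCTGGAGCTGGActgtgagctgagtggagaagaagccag
Gm3776: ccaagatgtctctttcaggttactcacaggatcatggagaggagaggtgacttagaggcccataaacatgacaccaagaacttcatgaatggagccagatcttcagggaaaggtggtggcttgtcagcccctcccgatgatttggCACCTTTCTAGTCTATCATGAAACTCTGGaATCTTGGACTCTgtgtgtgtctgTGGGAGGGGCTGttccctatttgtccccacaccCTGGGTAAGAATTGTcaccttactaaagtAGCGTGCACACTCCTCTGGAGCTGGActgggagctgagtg
Gsta2: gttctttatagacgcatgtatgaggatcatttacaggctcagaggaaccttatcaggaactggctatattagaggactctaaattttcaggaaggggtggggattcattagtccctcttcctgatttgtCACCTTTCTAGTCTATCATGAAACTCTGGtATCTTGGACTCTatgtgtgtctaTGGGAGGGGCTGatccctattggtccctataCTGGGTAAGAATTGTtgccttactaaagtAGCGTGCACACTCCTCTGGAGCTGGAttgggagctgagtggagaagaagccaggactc
These common words cover 94 of the 300 bases of each window, or 31.3%, with a longest run of 29 bases. Aligned end to end, the windows of Gsta1 and Gm3776 were 90.7% identical, those of Gsta1 and Gsta2 74.6%, and those of Gm3776 and Gsta2 69.3%.

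Gsta3, an alpha class gene whose level hardly differed between genotypes, is shown for contrast from chr1:21240335-21240634 on the plus strand. Its window was 50.7 to 51.4% identical to those of Gsta1, Gm3776 and Gsta2. Capitals mark its match to TGACNNNGC, the core of the antioxidant response element that NRF2 binds with its small MAF partners.
Gsta3: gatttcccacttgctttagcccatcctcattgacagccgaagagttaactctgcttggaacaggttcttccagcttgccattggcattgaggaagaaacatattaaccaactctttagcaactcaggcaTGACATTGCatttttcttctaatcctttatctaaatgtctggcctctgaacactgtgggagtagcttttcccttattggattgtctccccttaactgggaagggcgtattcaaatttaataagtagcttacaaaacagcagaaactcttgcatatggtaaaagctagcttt
The match begins at position -121 from the start site. The same letters, searched on both strands, were found in 12.4% of 32851 RefSeq windows of this length and in none of the windows of Gsta1, Gm3776 and Gsta2. GCGTG, the core of the site bound by AHR, had 1 match in each of those 3 windows and stood in 32.4% of all windows. The 3 matches lay inside the block of capitals at or near the start site. GCGTG also had 1 match in windows of Gstm1 (at -76 or -231, by start site) and Gstp1 (at -13). It had none in those of Gsta3, Gstm3, Gstt1, Gstt3 and Gm10639, an alpha class gene between Gm3776 and Gsta2. The letters of the matches in the 4 windows shown do not overlap, and a match says nothing of binding. Bases outside these windows were not searched, so the lack of a match says nothing of sites further upstream. A promoter entry was found for 9 of the 10 genes, all but Gsta4.

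Gsta1, Gsta2 and Gm3776 share so much transcript sequence that the split of reads among them is uncertain. Of the 50-base words in annotated Gsta1 transcripts, 90.5% also occur in another gene, and 75.7% occur in Gm3776. The shares with another gene are 92.5% for Gm3776 and 49.8% for Gsta2. The partners include Gm10639, an alpha class neighbour that is not among the 10. Gsta3, Gsta4 and Gstt1 share 0.273%, 0% and 0% of their words, so their counts stand on sequence of their own. Gstp1 shares 33.7%, all of it with Gstp2, and Gstm3 shares 28.8%, Gstm1 18.9% and Gstt3 12.5%. The sources used here do not say whether the counting used strand or how reads with several matches were treated.

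In WT liver the family spanned a wide range of levels. On the scale of CPM over the listed reads, divided by the kilobases of the principal coding transcript, the order in the WT pair of the TG table was Gsta3 with a mean of 1139, Gstm1 with 835, Gstt1 with 386, Gstt3 with 139, Gstp1 with 90.9, Gsta4 with 64.6, Gsta2 with 32.1, Gstm3 with 29.4, Gsta1 with 7.05 and Gm3776 with 3.94. Gsta2 and Gstm3 overlapped in the 2 libraries, and no other neighbours in this order did. Divided by all annotated exonic bases in place of the principal transcript, Gstm1 came first at 730 and Gsta3 second at 382, since Gsta3 has long non-principal exons. In the WT pair of the het table, which was normalised separately, Gsta3, Gstm1 and Gstt1 again led with means of 1060, 804 and 422, and Gsta1 and Gm3776 were last with 2.77 and 1.61. There, 3 pairs of neighbours overlapped: Gstt3 with Gstp1, Gstm3 with Gsta2, and Gsta1 with Gm3776. Levels of genes that share sequence, Gsta1, Gm3776 and Gsta2 above all, depend on how reads with several matches were treated, which is not known.

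**Figure D1:**
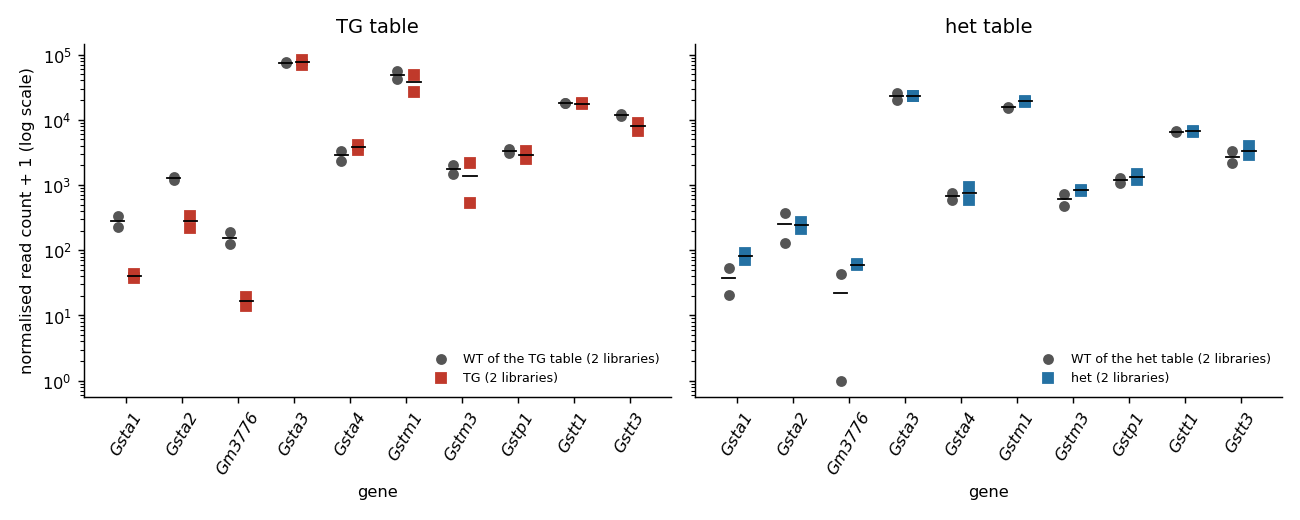
Normalised read count plus 1 on a log axis for the 10 transferase genes in each library, with WT as circles, mutant as squares and the group mean as a bar, n = 2 per group. TG libraries lie far below WT for Gsta1, Gsta2 and Gm3776, while Gsta3 and Gstt1 stay at the WT level, and WT replicate 1 of the het table has no Gm3776 read.

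In TG livers Gsta1, Gsta2 and Gm3776, alpha genes of chromosome 9, were lower than in WT by 4.54 to 9.87 times. The abundant alpha gene Gsta3 was at the WT level. Gsta1, whose enzyme conjugates a broad set of electrophiles and reduces lipid hydroperoxides, read 334 and 224 normalised counts in WT and 41.9 and 36.1 in TG. Both TG libraries lay far below both WT libraries, with means of 279 ± 77.6 in WT and 39.0 ± 4.13 in TG (SD, n = 2 each). The log2 fold change, on log2(value + 1), was -2.78 with a standard error of 0.28.

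Gsta2, the most abundant of these chromosome 9 paralogs and a close relative of Gsta1 in function, read 1333 and 1190 in WT and 338 and 217 in TG. The groups did not overlap, and the log2 fold change was -2.21 with a standard error of 0.24. Gm3776, a gene model beside Gsta1, read 187 and 124 in WT and 18.5 and 13.0 in TG. Its TG values rest on 19 and 13 reads, and its log2 fold change was -3.21 with a standard error of 0.36.

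A sum over Gsta1, Gsta2 and Gm3776 does not depend on how reads were split among them. It was 1854 and 1539 normalised counts in WT and 399 and 266 in TG. The log2 ratio, between the group means of log2(sum + 1), was -2.37, and the mean sum was 5.10 times lower in TG. With Gm10639 added to the sum, a choice made after seeing the data, the log2 ratio was -2.40. Within the sum, Gsta2 took 71.9 and 77.3% of the reads in WT and 84.8 and 81.6% in TG, and Gm3776 took 10.1 and 8.08% in WT and 4.65 and 4.89% in TG. The TG shares of Gsta2 were thus the higher ones and those of Gm3776 the lower ones, in both libraries. For Gsta2 the 95% Wilson intervals of WT replicate 2 (75.2 to 79.4%) and TG replicate 2 (76.5 to 85.8%) overlapped. For Gm3776 that of WT replicate 2 (6.81 to 9.55%) overlapped those of both TG libraries. Intervals of WT replicate 1 overlapped neither TG library for these genes.

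The other alpha class genes of the set did not share this difference. Gsta4, the enzyme for 4-hydroxynonenal and related products of lipid peroxidation, read 3347 and 2366 in WT and 3412 and 4171 in TG. Both TG libraries lay above WT, the nearest pair by little, with a log2 fold change of 0.42 and a standard error of 0.21. Gsta3, an abundant hepatocyte enzyme that detoxifies aflatoxin epoxide in mice, read 73169 and 76659 in WT and 70135 and 82399 in TG, with a log2 fold change of 0.02 (-0.01 with totals that leave out the 20 most abundant genes) and a standard error of 0.21. Gsta4 starts next to Gsta1 on chromosome 9, so the lower values did not extend over every transferase gene of that stretch.

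**Figure D2:**
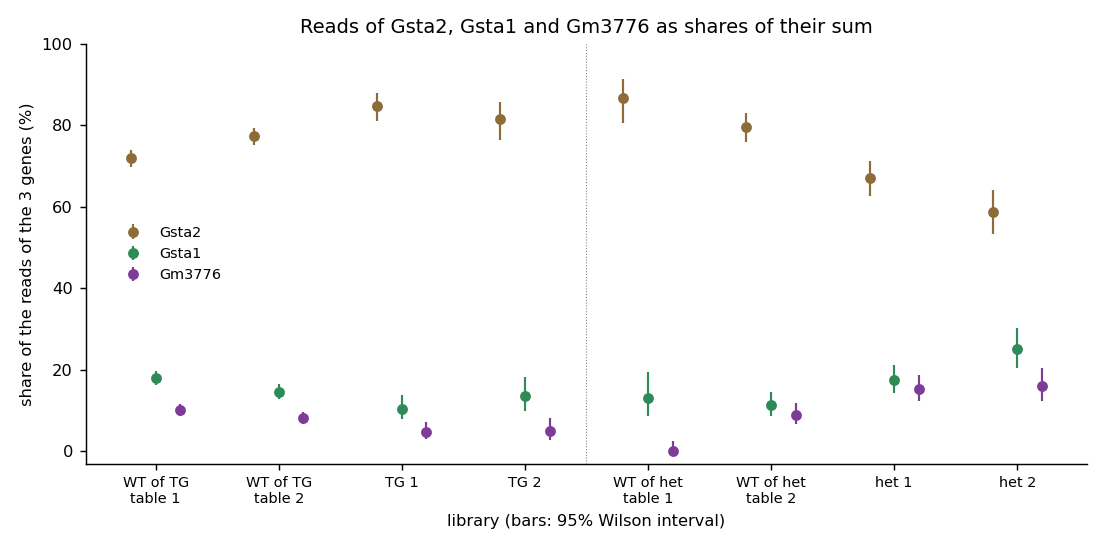
Reads of Gsta2, Gsta1 and Gm3776 as a percentage of their sum in each of the 8 libraries, with 95% Wilson intervals for counting error. Gsta2 takes 71.9 to 84.8% in the TG table, and in the het table its share is 79.7 to 86.8% in WT and 58.8 to 67.2% in het.

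Among the mu class genes the 2 TG libraries went separate ways. Gstm1, the most abundant mu class enzyme here, read 55503 and 41811 in WT and 49252 and 26743 in TG. Gstm3 read 2011 and 1478 in WT and 2169 and 532 in TG, so TG replicate 1 was above both WT libraries and TG replicate 2 far below them. The log2 fold changes were -0.41 for Gstm1 (standard error 0.35) and -0.68 for Gstm3 (standard error 0.79). Without TG replicate 2 they were 0.03 and 0.33, and without TG replicate 1 they were -0.85 and -1.69. The sign of both thus depended on a single library.

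The theta and pi class genes had small differences in TG. Gstt3, a theta class enzyme, read 12320 and 11227 in WT and 9007 and 6833 in TG, with no overlap, a log2 fold change of -0.58 and a standard error of 0.19. Gstt1, its neighbour on chromosome 10 and the enzyme that acts on small halogenated compounds, lay between 17438 and 18369 in all 4 libraries, with a log2 fold change of -0.03. Gstp1, the pi class enzyme, lay between 2527 and 3598 with overlapping groups and a log2 fold change of -0.22.

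Set against all genes, 8 of the 10 were below WT in TG, where 49.8% of the 13774 genes were. Non-overlapping groups with TG lower were seen for 4 of the 10 (Gsta1, Gsta2, Gm3776 and Gstt3) and for 21.6% of all genes, and with TG higher for 1 (Gsta4) and 21.8%. A log2 fold change of -2 or below was seen for 3 of the 10 and for 0.341% of genes. Because the genes were picked from this comparison, nothing is read from these counts. limma, whose calls need a p under 0.05 after Benjamini-Hochberg adjustment, called 0 of the 10 and 0.0% of all genes, while 1256 genes had an unadjusted p under 0.05, and edgeR called 0.0% as well. DESeq2 on the recovered reads called Gsta1, Gsta2 and Gm3776 and 1.38% of 13506 genes, 0.666% as lower. Without TG replicate 2, limma called 146 genes, or 1.06%, Gsta1 and Gsta2 among them. The median log2 fold change was -0.50 over the 10 genes and 0.0014 over all genes. For the 10 it was -0.07 without TG replicate 2 and -0.82 without TG replicate 1.

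**Figure D3:**
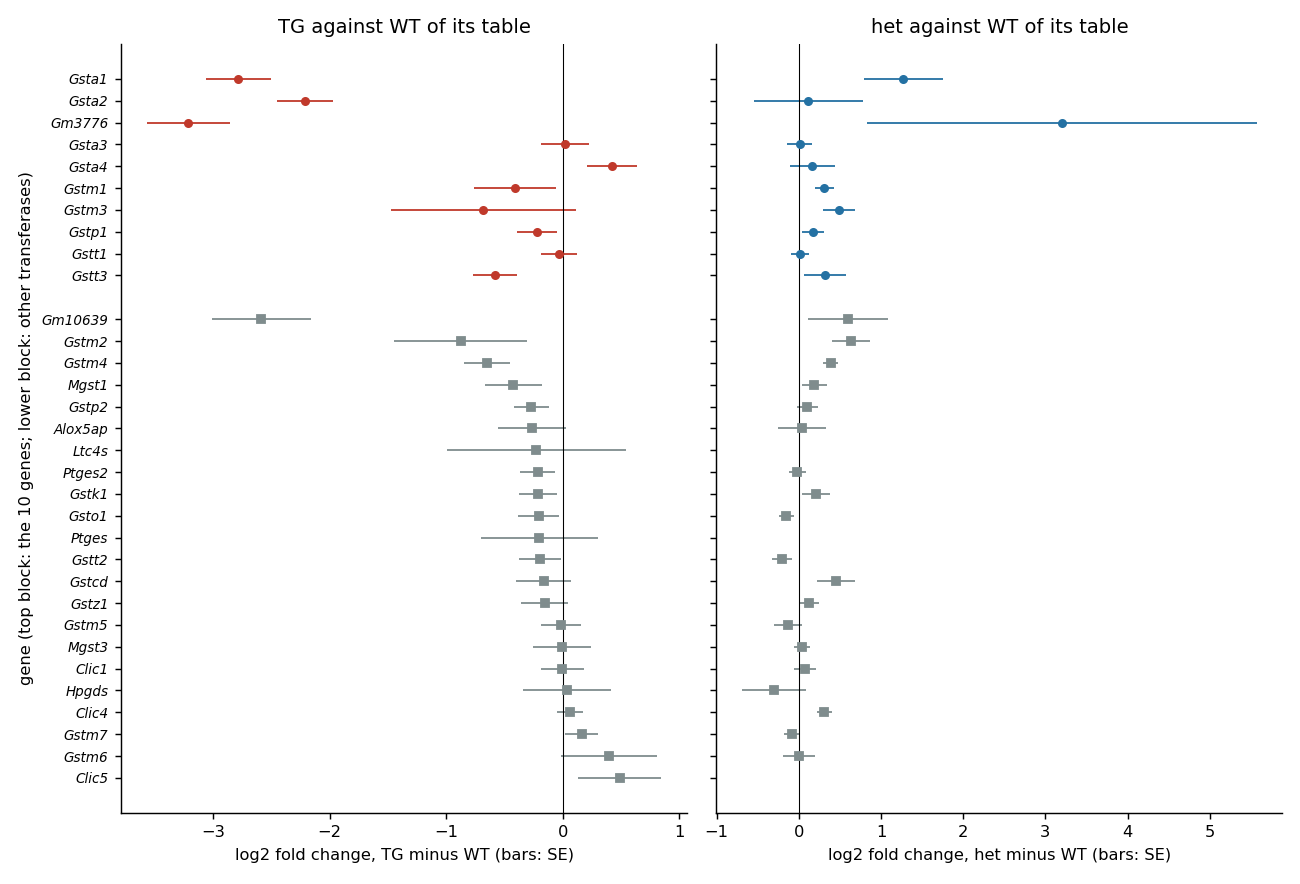
Log2 fold change with standard error for the 10 genes (coloured circles) and the other transferases listed (grey squares), TG minus WT on the left and het minus WT on the right, on axes of different range. In TG the values of Gsta1, Gsta2, Gm3776 and Gm10639 lie between -3.21 and -2.21, apart from the rest, and in het the bar of Gm3776 is the widest, with a standard error of 2.37.

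In het livers the picture was different: Gsta1, Gsta2 and Gm3776 differed widely between the 2 WT libraries, and Gstm1 and Gstm3 were higher in both het libraries. Gsta1 read 19.5 and 53.3 in WT and 70.7 and 89.7 in het, with no overlap, a log2 fold change of 1.27 and a standard error of 0.48. Gsta2 read 129 and 375 in WT and 270 and 210 in het, so the het libraries lay between the WT ones, and the log2 fold change was 0.12 with a standard error of 0.66. Gm3776 had no read in WT replicate 1 and 42.0 normalised counts in WT replicate 2, against 61.2 and 57.5 in het. Its log2 fold change of 3.20 has a standard error of 2.37 and moved from 2.07 to 3.70 with pseudocounts of 5 and 0.5. edgeR and DESeq2 on the recovered reads gave 1.51 and 1.49, and the mean in het was 2.82 times that in WT.

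The size of these differences depended on WT replicate 1 of the het table. Without it the log2 fold changes in het were 0.57 for Gsta1, -0.65 for Gsta2 and 0.49 for Gm3776, and without WT replicate 2 they were 1.98, 0.88 and 5.91. The sum of the 3 genes was 148 and 471 normalised counts in WT and 402 and 358 in het. The log2 ratio, again between means of log2 values, was 0.52, and -0.31 without WT replicate 1. The mean sum in het was 1.23 times that in WT. In CPM, the sum in WT replicate 1 of the het table was 9.79, beside 26.3 and 23.6 in het. It was 8.71 and 5.55 in TG and 31.5 to 40.6 in the other 3 WT libraries. This compares levels across tables that were normalised separately.

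The split of reads within the sum also differed in het. Gsta2 took 86.8 and 79.7% in WT and 67.2 and 58.8% in het, with 95% Wilson intervals that did not overlap between WT and het. Gm3776 took 0 of 152 reads in WT replicate 1, which by the limit of 3 counts allows a share of up to 1.97% (the Wilson upper bound is 2.46%), and 8.93% in WT replicate 2, against 15.2 and 16.1% in het. Intervals cover counting error only, and reads of these paralogs may be assigned to each other.

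**Figure D4:**
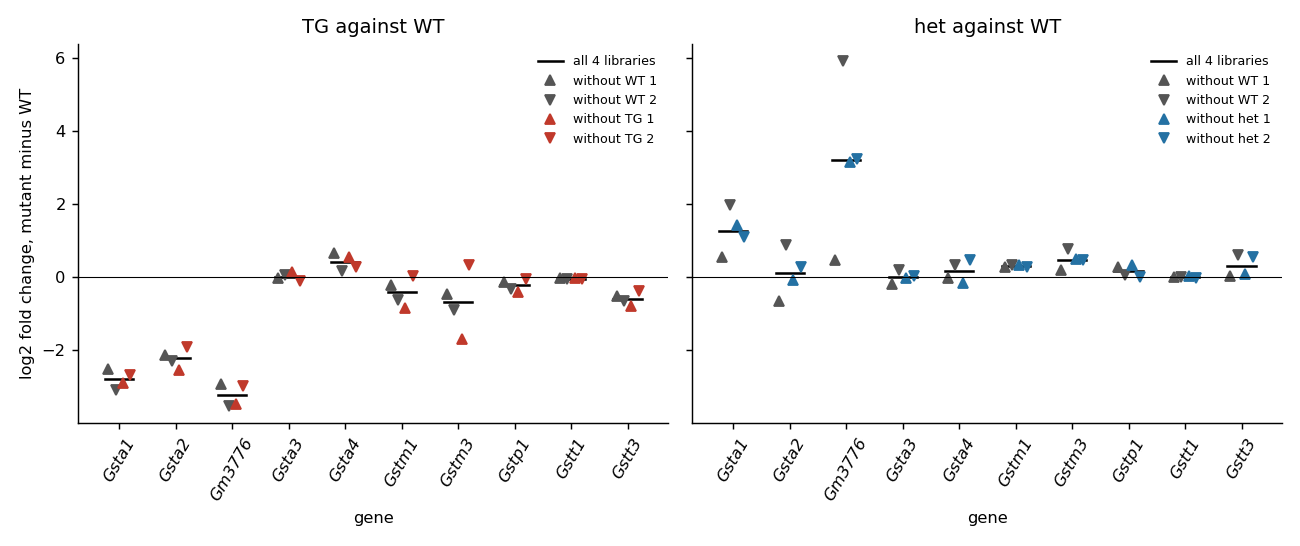
Log2 fold change of each of the 10 genes with all 4 libraries of a comparison (black bar) and with 1 library left out (triangles), for TG on the left and het on the right. In TG the values of Gsta1, Gsta2 and Gm3776 stay between -3.51 and -1.89, those of Gstm1 and Gstm3 lie on both sides of 0, and in het Gm3776 spans 0.49 to 5.91.

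Gstm1 read 15278 and 15897 in WT and 19025 and 19594 in het, with tight pairs, a log2 fold change of 0.31 and a standard error of 0.12. Gstm3 read 481 and 723 in WT and 817 and 833 in het, again with no overlap, and a log2 fold change of 0.48 with a standard error of 0.20. Leaving out a library moved Gstm1 between 0.28 and 0.34 and Gstm3 between 0.19 and 0.78. As the groups did not overlap, leaving out a library could not turn the sign of either gene. The limma adjusted p was 0.2699 for Gstm1 and 0.3426 for Gstm3.

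The other members had overlapping groups in het, with log2 fold changes up to about that of Gstm1. Gsta3 lay between 20263 and 26169 in the 4 libraries, Gsta4 between 581 and 927, Gstp1 between 1088 and 1486, Gstt1 between 6515 and 6760, and Gstt3 between 2199 and 3907, all with overlapping groups. Their log2 fold changes ran from 0.01 for Gsta3 and Gstt1 to 0.31 for Gstt3, with standard errors of 0.11 to 0.27. All 10 genes had a log2 fold change above 0, as had 49.9% of the 11773 genes, but for Gsta2 and Gsta3 it was below 0 with edgeR (-0.06 and -0.01) and with DESeq2 (-0.07 and -0.0047), and for Gsta3 and Gstt1 with totals that leave out the 20 most abundant genes (-0.0093 and -0.0047).

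Groups without overlap and with het higher were seen for 4 of the 10 (Gsta1, Gm3776, Gstm1 and Gstm3) and for 24.3% of all genes, and with het lower for 0 of the 10 and 23.7%. limma called 0 of the 10 and 1.44% of all genes, while DESeq2 called 0 of the 10 and 2.45%, and edgeR called 0 of the 10 and 1.55%. An unadjusted p under 0.05 was seen for 2 of the 10 (Gsta1 and Gstm1) and for 1729 of the 11773 genes. Without WT replicate 2, limma called 173 genes, or 1.47%, with Gsta1, Gm3776 and Gstm3 as higher among them. The median log2 fold change was 0.24 over the 10 and -0.0007 over all genes. For the 10 it was 0.11 without WT replicate 1, 0.47 without WT replicate 2 and 0.38 without het replicate 2.

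The effect in TG minus the effect in het, from a single fit of the 8 libraries over 11754 genes, was -4.06 for Gsta1 (standard error 0.63), -2.33 for Gsta2 (0.72) and -6.41 for Gm3776 (2.37). It was -0.90 for Gstt3 (standard error 0.34), -1.17 for Gstm3 (0.96) and -0.72 for Gstm1 (0.39), and between -0.40 and 0.26 for the other 4. limma called 0 of the 10 and 0.434% of genes for this difference (1963 genes had an unadjusted p under 0.05), and DESeq2 called Gsta1 and Gsta2 and 3.16% of genes. Without TG replicate 2 limma called 643 genes (5.47%), Gsta1 among them, and without WT replicate 2 of the het table it called 17 (0.145%), with Gsta1 and Gm3776. The median of the difference was -0.81 over the 10 and 0.01 over all genes. For the 10 it was -0.24 without TG replicate 2 and -1.13 without TG replicate 1.

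Of 22 other transferase and related genes measured beside TG, 5 were above and 17 below WT, with a median of -0.20 and none past the limma threshold. Beside het, 12 of 19 were above and 7 below, with a median of 0.07 and none past it. Gm10639, between Gm3776 and Gsta2 on chromosome 9, read 249 and 219 in WT and 57.5 and 25.0 in TG, a log2 fold change of -2.59 (standard error 0.43, limma adjusted p = 0.2993). It is thus as low in TG as the members beside it, and its start window is 97.4% identical to that of Gm3776. In het it read 53.4 and 42.6 against 18.5 and 52.3 in WT.

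The mu class cluster on chromosome 3 showed the same split between TG libraries in Gstm2, a close relative of Gstm1, which read 3584 and 2646 in WT and 2833 and 994 in TG. Gstm4 read 3865 and 2744 in WT and 2226 and 1938 in TG, so both TG libraries were lower, with a log2 fold change of -0.65 (limma adjusted p = 0.5257). In het Gstm2 read 1560 and 1867 against 885 and 1360 in WT, and Gstm4 read 1348 and 1289 against 979 and 1038 (limma adjusted p = 0.09795). Gstm5, Gstm6 and Gstm7 stood at -0.02, 0.40 and 0.16 (log2 fold change) in TG and at -0.13, -0.0005 and -0.09 in het. Gstm6 also differed widely between the TG libraries, at 3341 and 1601 beside 1485 and 2074 in WT. Not every mu class gene followed Gstm3.

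**Figure D5:**
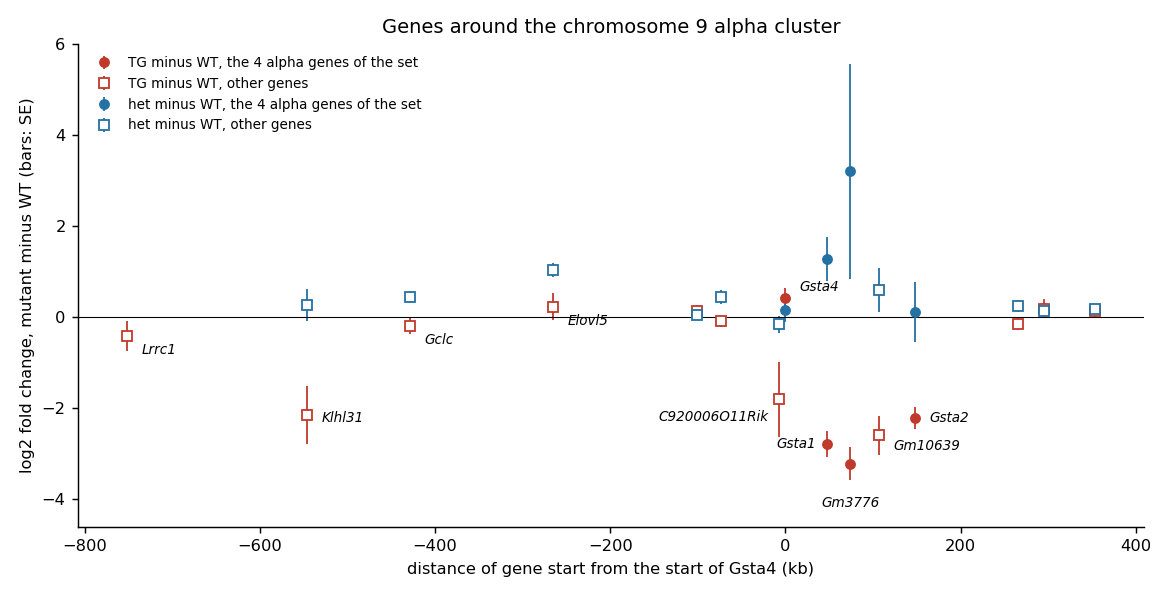
Log2 fold change with standard error of the listed genes within 1 Mb of the chromosome 9 alpha genes, against the distance of each gene's start from that of Gsta4 in kb, TG in red and het in blue. In TG the points from Gsta1 to Gsta2 lie between -3.21 and -2.21, C920006O11Rik and Klhl31 lie at -1.80 and -2.14, and most other genes lie near 0.

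Around the chromosome 9 alpha genes, 11 listed genes outside the set start within 1 Mb in the TG table, 7 of them below WT, with a median of -0.14 and none past the limma threshold. The largest differences were in Gm10639, Klhl31 (-2.14, standard error 0.64, a low gene at 43.0 and 31.3 in WT and 13.6 and 4.01 in TG) and C920006O11Rik (-1.80, standard error 0.82). Gclc, the catalytic subunit of glutathione synthesis, also lies in this stretch, at a log2 fold change of -0.18. In het 9 of 10 such genes were above WT, with a median of 0.26, and 1 passed the threshold: Elovl5, an elongase of polyunsaturated fatty acids, rose from 12466 and 10439 to 26902 and 20443 (log2 fold change 1.04, limma adjusted p = 0.02952). Its call held without het replicate 2 and was lost without any of the other libraries. Around the members on chromosomes 1, 3, 10 and 19, the medians of the neighbours lay between -0.11 and 0.07 in TG and between -0.10 and 0.12 in het, and 1 gene passed, in het, near Gstp1.

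By the root mean square distance of log2 values centred on the WT pair of each table, over 8 libraries and 11753 genes, the profiles nearest to Gsta1 were Clstn3 (0.397), Gm10639 (0.468), Col5a3 (0.525), 9130409I23Rik (0.529) and Als2cr12 (0.576), against a median of 1.59 over all genes. Gsta2 ranked 12 in that order, and Gm3776, which has no read in 1 WT library, ranked 1306 (1.42). Clstn3 read 1812 and 1306 in WT and 291 and 225 in TG, and 172 and 220 in WT and 676 and 686 in het. It was thus low in both TG and high in both het libraries. For Gstm3 the nearest were Gstm2 (0.188), Hist3h2a (0.263), Pik3c2g (0.289), Aldh1b1 (0.303) and Lyve1 (0.308), with Gstm1 at rank 9 (0.355) and a median of 0.718. These are descriptions of likeness, and the points share libraries.

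The genes that make and use glutathione had medians close to 0 in both comparisons. Of 23 genes of glutathione synthesis and turnover in the TG table, 13 were above and 10 below WT with a median of 0.0055, and of 21 measured beside het, 9 were above and 12 below with a median of -0.11. limma called none in either. Chac2, which degrades glutathione, read 999 and 1031 in WT and 2280 and 1221 in TG (limma adjusted p = 0.5748), and Gclc read 2957 and 2324 in WT and 3529 and 3577 in het (limma adjusted p = 0.1586). Of 21 genes of glutathione use and reduction, 11 were below WT in TG and 13 above WT in het, and limma called none. Gpx4, which reduces lipid hydroperoxides with glutathione, read 3314 and 3104 in WT and 2311 and 2591 in TG (limma adjusted p = 0.5283), and 1036 and 1121 in WT and 1337 and 1616 in het (limma adjusted p = 0.1153).

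The lists of export steps and of regulators held a few called genes, all in het. The first list holds Slco as well as Abcc transporters, and whether each of them exports conjugates was not tested. Of 15 genes of conjugate export and mercapturate steps, limma called none in TG, and 2 fell in het: the transporters Abcc6, from 4942 and 4464 to 3254 and 2950 (log2 fold change -0.60, adjusted p = 0.04424), and Slco1a4, from 1558 and 1574 to 1028 and 1094 (-0.56, adjusted p = 0.03126). In TG, Slco1a4 read 5002 and 5805 in WT and 9085 and 9345 (limma adjusted p = 0.3823). Of 22 regulators of transferase genes, limma called none in TG, and Ahr, the receptor for dioxin-like compounds, fell in het from 521 and 577 to 361 and 369 (-0.58, adjusted p = 0.0403). The median was 0.16 in TG and 0.02 in het. None of these 3 calls held when any 1 of the 4 libraries was left out, with adjusted p up to 0.2244.

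Among 28 indicator genes of NRF2, CAR, PXR and AHR in the TG table, 20 were below WT and 8 above, with a median of -0.21 and none past the limma threshold. Ces2c, a carboxylesterase with the smallest p of the list, read 2334 and 2433 in WT and 743 and 764 in TG (log2 fold change -1.66, limma adjusted p = 0.07935). In het 17 of 26 were above WT with a median of 0.12, and 2 rose: Ugt1a9, a glucuronosyltransferase, from 293 and 257 to 507 and 626 (1.03, limma adjusted p = 0.01188), and Aox1, aldehyde oxidase, from 783 and 737 to 1177 and 1130 (0.60, limma adjusted p = 0.02493). Leaving out a library ended no call of Ugt1a9, and leaving out any of the 4 ended that of Aox1. Nqo1, a standard NRF2 target, stood at a log2 fold change of -0.50 in TG and of 0.19 in het (limma adjusted p = 0.568 and 0.7043).

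Markers of cell types differed in the same libraries. In bulk liver, fewer cells of a type and less RNA per cell cannot be told apart. In TG, 11 of 12 general hepatocyte markers were above WT (summed values 4490865 to 5333576 in WT and 5356205 to 5792199 in TG), 12 of 12 sinusoidal endothelial markers were below (19409 to 20047 and 16067 to 16348) and 12 of 13 Kupffer cell markers were below (33802 to 36090 and 22086 to 30013). In het, 4 of 12 hepatocyte markers were above WT (1754611 to 2010846 in WT and 1641303 to 1800689 in het), 12 of 12 endothelial markers were above (4671 to 5044 and 5888 to 5904), of which Lyve1 and Gpr182 rose (Gpr182 lost its call without any of the 4 libraries, Lyve1 without any but WT replicate 2), and 11 of 13 Kupffer cell markers were above (8276 to 11360 and 9618 to 13283). No marker of these lists was at 0 in every library, which was fixed in advance by the listing. The part of these markers in the transferase values was not tested.

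Of the zonation markers in TG, 10 of 14 pericentral ones were above WT (summed values 426854 to 595075 in WT and 338793 to 677613 in TG). Of the periportal ones, 7 of 9 were below (289044 to 333987 and 201257 to 356586). In both sums the TG libraries lay on either side of the WT pair. Groups did not overlap for 2 pericentral markers as lower and 3 as higher, and for 2 and 1 periportal ones. Of all genes, 21.6% did so as lower and 21.8% as higher. In het, 10 of 14 pericentral markers were below WT (215452 to 223073 in WT and 160713 to 200996 in het), with Notum and Rnf43 past the limma threshold (Rnf43 not without het replicate 1 or either WT library), and 6 of 9 periportal markers above (63467 to 77772 and 89870 to 106370). The same holds for the zonation lists, and the part of their markers in the transferase values was not tested.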

How the data were processed

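Liver RNA, extracted with TRIzol and made into libraries with TruSeq reagents, per the labels' protocols, was sequenced in 8 libraries. Tools named in the submitters' processing notes are featureCounts, Subread 1.5.2 and DESeq2, with mm10/GRCm38, in no order; for the annotation, the strand setting and reads with several matches, the sources used here say nothing. The deposited signal values are gene counts scaled by the authors with 1 size factor per library: divided by the value of 1 read, 100% of entries came out whole, within 0.001 of a read (for large counts, within rounding). The lowest mean of a listed gene was 11.2 in the TG table and 17.8 in the het table. Tables were normalised separately.

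Values were taken to log2(value + 1), which can understate the fold change of a low gene, or overstate it where 1 library of a group is at 0 (Gm3776 in het). limma 3.58.1 (trend, robust) in R 4.3.3 was fitted to all genes of a table, n = 2 per group, and a gene was called at a Benjamini-Hochberg adjusted p under 0.05; the difference of effects came from a joint fit. The method was run on simulated counts with a fixed spread between libraries, which does not show how it performs on these libraries. edgeR 4.0.16 and DESeq2 1.42.0 on the recovered reads, other pseudocounts, scalings and filters, the replicate block, all 8 libraries together and leaving out each library were alternatives. The chi-square of a pair of libraries, per degree of freedom, was 18.9 to 383, so no library was a copy of another.

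The members and all gene lists were chosen with earlier results of these data known. All 10 members are named; other genes were named by rule: called genes of each list, up to 6 per direction, or the 2 of smallest p; the 5 nearest profiles to Gsta1 and Gstm3; and the neighbours of largest fold change. Examples beyond the rule, such as Nqo1, Gclc and Gstm5 to Gstm7, were named after their values were seen. Positions came from GENCODE M21 (96.1 and 96.3% of genes), promoter windows from RefSeq. Cholangiocyte, stellate cell, mesothelium, lymphocyte, erythrocyte and adipocyte lists are given in the closing section.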

Additional observations from a re-analysis of the deposited data

Results flagged for a closer look

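The difference between the effect in TG and the effect in het passed limma's threshold in the joint fit of 8 libraries for 4 named genes. For Slco1a4 it was 1.34 (adjusted p = 0.02534, 0.77 in TG and -0.56 in het), with TG above WT and het below in 2 of 2 libraries each. For Srxn1, sulfiredoxin, it was -1.09 (adjusted p = 0.03018, -0.69 in TG and 0.40 in het), and for Aox1 it was -1.54 (adjusted p = 0.01653, -0.94 in TG and 0.60 in het), each with TG below and het above WT in 2 of 2 libraries. For Ube3a, the targeted gene, it was 2.65 (adjusted p = 0.001566), with TG above and het below WT in 2 of 2 libraries each. Ube3a passed without each of the 8 libraries. Slco1a4, Srxn1 and Aox1 failed without either library of WT in the het table or of het, Slco1a4 and Srxn1 also without WT replicate 1 of the TG table, and Srxn1 without its WT replicate 2 as well, with adjusted p up to 0.1629. With the replicate block Srxn1 failed too (adjusted p = 0.05787).

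Gsta1 and Gm3776 had both TG libraries below both WT libraries and both het libraries above theirs, with differences of -4.06 and -6.41. The genes were chosen from the same comparisons, so these differences were not tested on independent data, and limma's joint fit called neither of them.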

How the results depend on the processing

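The log2 fold changes of Gsta1, Gsta2 and Gm3776 in TG kept their sign in 14 of 14 settings. This was fixed in advance where a library was left out, as the groups did not overlap. It was also fixed where only the variance estimate or the genes fitted changed. When a library was left out, the log2 ratio of their sum lay between -2.66 and -2.08. In het that sum moved between -0.31 and 1.35. Counts of called genes moved most. For the 13 genes named as called in het, 6 calls held without the robust estimate, 11 with the replicate block, 12 with DESeq2, 0 in the fit of all 8 libraries, and 2 to 6 when a library was left out, all with the same sign. In TG, 0 genes were called, against 186 with DESeq2 (3 of the 10 members), 25 in the fit of all 8 libraries, and 0 to 146 (0 to 2 members) when a library was left out. In het, 169 genes were called, against 289 with DESeq2, 93 without the robust estimate, 0 in the fit of all 8 libraries and 61 to 173 (0 to 3 members) when a library was left out, the fewest without het replicate 1 (61) and WT replicate 1 (65). For the difference of the effects, 51 genes were called, against 371 with DESeq2 (2 members), and 5 to 643 (0 to 2 members) when a library was left out, the most without TG replicate 2 and the fewest without WT replicate 1 of the het table. A pseudocount of 5 called 1 member, Gsta1. Members below WT in het numbered 0, but 2 with edgeR, DESeq2 or totals without the 20 most abundant genes, and 0 to 3 when a library was left out. The cause was not tested.

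With the replicate number as a block, 0 genes were called in TG, 138 in het and 46 for the difference, with 1 member, Gsta1, in the last. The labels share only a number: deviations of same-numbered libraries correlated at 0.11 in TG and -0.04 in het, over 2 pairs each. A library left out leaves an arm with 1 library, which is assumed to vary like the others. Gm3776 could not be fitted in het under a minimum mean of 50.

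With 2 libraries a group, differences of the size seen for Gstp1 and Gstm3 in TG lay within the spread between libraries. Gm3776 rested on 13 to 19 reads in TG, and near-identical paralogs limit what single alpha genes show.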

Other observations

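Lists of other cell types give the following values. Of 9 cholangiocyte markers in TG, 6 were below WT (median -0.16), and of 3 in het, 2 were above (0.02). Stellate cell markers split 6 to 6 in TG (median -0.06) and 4 above to 7 below in het (-0.07). Of 8 mesothelial markers in TG, 5 were above WT (0.07), while in het 4 of 4 were below, with a median of -2.08, and Upk3b, Slpi and Gpm6a fell past limma's threshold (adjusted p of 0.008907, 0.03936 and 0.04424). Gpm6a lost its call on leaving out each of the 4 libraries in turn, Slpi without het replicate 1 or either WT library and with the replicate block, and Upk3b without WT replicate 1. Of 8 lymphocyte markers in TG, 7 were below WT (median -0.28), and 2 of 2 were below in het (-0.24). The erythroid marker Alas2 was at -0.76 in TG and 0.40 in het. Of 5 adipocyte markers, 0 were listed in the TG table and 1 in the het table, Cfd, at 1.95 and 13.3 in WT and 22.4 and 54.1 in het.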
